A study of Mus musculus with 5 samples.

Results

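Myo1d, Bank1, Nhs and Gm31243 are 4 of the 32285 genes counted in the nuclei of 5 mouse brains. They were chosen because their level was lower in the microglia of mice with an activated cGAS than in control microglia, so that difference is given here as a description only. cGAS is the cytosolic DNA sensor that makes the second messenger cGAMP, which activates STING and through it type I interferon genes. The R241E substitution removes the hold of nucleosomes on cGAS. All animals carried Tmem119-creERT2, a tamoxifen-inducible Cre recombinase under the promoter of a microglial gene, which acts mainly in microglia and brain macrophages. The R241E group was Tmem119-creERT2-cGaswt/R241E (2 mice) and the WT group Tmem119-creERT2-cGaswt/wt (3 mice), 1 library per mouse. The study's methods give tamoxifen to young adult animals to switch on the mutant allele. A treatment text on aged mice and the STING inhibitor H151 accompanies all 5 samples, but no label ties it to any of them, and 1 sentence of the study's results names the controls otherwise than the titles and methods do. The tissue is labelled hippocampus, whereas the methods speak of brain. Nuclei were sorted for low NeuN, a neuronal marker, and low Olig2, an oligodendrocyte-lineage marker, to enrich microglia. They were counted by single-nucleus 3′ sequencing with unique molecular identifiers (UMIs).

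The deposited matrices held 9748 nuclei, of which 9505 passed the filters, with a median of 2125 to 3364 UMIs per nucleus in the 5 libraries. Microglia-like nuclei numbered 5362, with 997 and 520 from R241E mice and 924, 1470 and 1451 from WT mice. Levels are given as CPM, the UMIs of a gene scaled to one total of UMIs per class and library. All 10 microglial marker genes were detected in them, with a summed level of 7958 to 9240 CPM. Of their 5 clusters, cluster 18 held 11 and 35 R241E nuclei but 705, 912 and 547 WT nuclei. Cluster 10 held 498 and 191 R241E nuclei and 31, 67 and 54 WT nuclei. Gm31243 is itself among the 10 leading genes of clusters 1 and 18, so cluster sizes are given here as makeup only. Pairs of libraries shared 0 to 2 cell barcodes.

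The 4 genes come from unrelated families. Myo1d encodes a class I unconventional myosin, a single-headed motor that links membranes to actin filaments and is abundant in myelin-forming oligodendrocytes. Bank1 encodes a scaffold protein with ankyrin repeats, known from B cells, where it joins the kinase Lyn to calcium-releasing IP3 receptors downstream of the antigen receptor. Nhs encodes a regulator of actin remodelling that is mutated in Nance-Horan syndrome, a disorder of the lens and teeth. Gm31243 is a long non-coding RNA with no assigned role. On GRCm38.p6, Myo1d spans 297.93 kb of chromosome 11 (80482126 to 80780055), Nhs 326.15 kb of chromosome X (161833290 to 162159441) and Bank1 272.78 kb of chromosome 3 (136053363 to 136326141). Gm31243 spans 28.11 kb of chromosome 3 (135901810 to 135929917). Bank1 is transcribed from the opposite strand towards Gm31243, and 123.44 kb separate the 3′ end of Gm31243 from that of Bank1. No gene counted in these files lies between them.

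In microglia-like nuclei of the R241E mice Myo1d stood at 58.9 and 64.5 CPM, and in those of the WT mice at 236.2, 220.9 and 226.1. Bank1 stood at 139.3 and 175.6 against 502.1, 509.0 and 429.7. Gm31243 stood at 124.5 and 149.2 against 476.5, 447.0 and 409.0. For all 3 genes the R241E libraries lay close together and far below the lowest WT library. Nhs, much sparser, stood at 5.04 and 5.55 CPM (16 and 8 UMIs) against 50.7, 64.8 and 46.2 (125, 281 and 154 UMIs). The fitted log2 fold changes, R241E against WT, were -1.91 ± 0.11 (SE) for Myo1d, -1.64 ± 0.13 for Bank1, -3.39 ± 0.27 for Nhs and -1.73 ± 0.12 for Gm31243. All 4 were called lower by edgeR's quasi-likelihood test, as the choice of the genes had to give, where 3.10% of the 12694 genes tested were called lower and 5.70% higher.

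**Figure D1:**
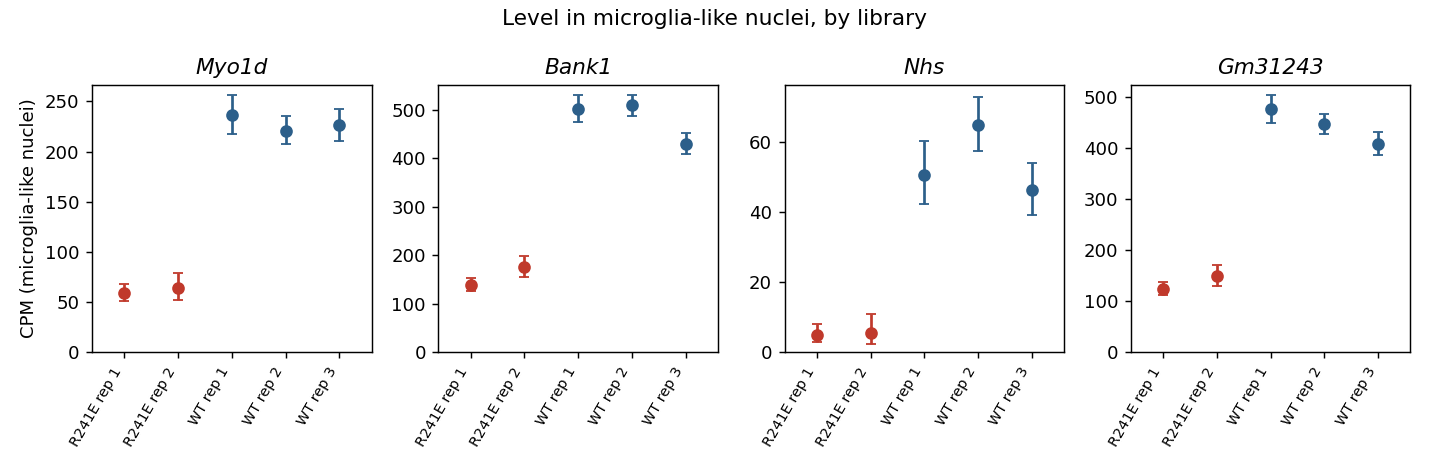
Level of each gene in microglia-like nuclei (vertical axis, CPM, from 0) in each of the 5 libraries (R241E red, WT blue), with exact 95% Poisson intervals that cover counting error only. In every panel both R241E libraries sit below all 3 WT libraries, and for Nhs they sit at 5.04 and 5.55 CPM.

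Marker genes of other cell classes were counted in the same nuclei. The 8 markers of border-associated macrophages, a class rich in Bank1 and Gm31243, summed to 98.7 and 143.7 CPM in R241E microglia-like nuclei and to 211.3 to 240.2 in WT ones. Most of that was Stab1 (2555 UMIs), at 88.6 and 134.6 against 190.7 to 226.7, and Mrc1 stood at 1.26 and 4.86 against 12.2, 16.6 and 7.5. Ms4a7, with 34 UMIs, went the other way, at 5.67 and 2.08 against 1.22, 0.923 and 1.8. F13a1, Pf4, Lyve1 and Cbr2 gave only 12, 13, 14 and 6 UMIs. Cd163, with 2 UMIs in all, was at 0 in 3 libraries. The sums, and the choice of nuclei without these markers, thus follow Stab1 mostly, and whether its UMIs come from macrophages was not tested. The part of macrophage RNA in the levels of Bank1 and Gm31243 was not tested beyond the following values. In the 3477 microglia-like nuclei without a UMI of any of these markers, the log2 fold changes were -1.93 for Myo1d, -1.57 for Bank1, -3.30 for Nhs and -1.71 for Gm31243, within 0.1 of the values in all nuclei. The 8 oligodendrocyte markers moved the other way, with sums of 213.4 and 306.7 in R241E and 127.6 to 146.9 in WT. Of the 7 B cell markers, Ms4a1 reached at most 0.9 CPM, and Ighm alone was well counted, at 222.5 and 268.6 against 239.5 to 307.1.

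The 5′ flanks of Bank1 and Gm31243 are shown because these 2 genes lie on one chromosome and were lower together. RefSeq promoters on GRCm38.p6 matched 3 of the 4 genes, with 2 start sites for Gm31243. Each line gives the 250 bases before the start, 5′ to 3′ on the gene's strand, with matches to the searched motifs in capitals.
Gm31243, first start (plus strand, chr3:135901560-135901809): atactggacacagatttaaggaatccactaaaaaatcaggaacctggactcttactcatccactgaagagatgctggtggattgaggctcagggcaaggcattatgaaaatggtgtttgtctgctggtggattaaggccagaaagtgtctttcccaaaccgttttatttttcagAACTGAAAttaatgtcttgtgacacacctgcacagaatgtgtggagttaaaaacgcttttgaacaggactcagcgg
Gm31243, second start (plus strand, chr3:135904883-135905132): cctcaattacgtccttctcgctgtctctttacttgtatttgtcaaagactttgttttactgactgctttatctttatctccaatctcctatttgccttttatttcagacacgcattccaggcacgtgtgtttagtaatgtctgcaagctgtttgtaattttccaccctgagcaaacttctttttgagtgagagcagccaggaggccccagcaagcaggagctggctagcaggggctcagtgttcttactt
Bank1 (minus strand, chr3:136326067-136326316): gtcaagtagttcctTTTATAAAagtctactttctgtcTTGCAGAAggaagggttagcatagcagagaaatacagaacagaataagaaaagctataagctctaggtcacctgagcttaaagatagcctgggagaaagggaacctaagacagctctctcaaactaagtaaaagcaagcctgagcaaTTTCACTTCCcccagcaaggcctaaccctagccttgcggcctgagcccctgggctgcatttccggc
The letters searched on both strands were AANNGAAA for interferon regulatory factors, GGAAGT for ETS factors, TGTGGT for RUNX, TTGCNNAA for C/EBP, TGANTCA for AP-1 and TATAAA for a TATA box. The interferon regulatory letters matched once in the Bank1 window, 66 bases before the start and overlapping the ETS match, and once in the first Gm31243 window, 76 bases before the start. Of all 32851 promoter windows of this length, 21.3% hold those letters and 19.7% hold the ETS letters. Bank1 also held the C/EBP letters (9.56% of windows) and the TATA letters (12.4% of windows), the latter 234 and 236 bases upstream. In the second Gm31243 window and in the Nhs window none of the 6 motifs was found. G and C made up 46.4% of the Bank1 window, 42.4% and 44.0% of the Gm31243 windows and 62.4% of the Nhs window, against a median of 52.4%.

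Counted per nucleus, fewer R241E nuclei gave a UMI of each gene, and those that did mostly gave fewer. Every nucleus was thinned to 1000 UMIs so that depth could not set the share, which left out 138 shallower nuclei. Myo1d was then detected in 4.84% and 5.65% of R241E microglia-like nuclei and in 20.0%, 18.8% and 20.2% of WT ones. Bank1 was detected in 11% and 13.5% against 30.5%, 32.4% and 30.4%. For Gm31243 the shares were 8.77% and 12.1% against 30.2%, 30.2% and 26.6%, and for Nhs 0.706% and 0.605% against 2.88%, 4.08% and 2.96%. Astrocytes served as the background for Myo1d, where its share was at most 1.72% in any library, and those of Bank1 and Gm31243 were at most 0.699% and 1.59%. Other classes gave more. In WT replicate 3, Bank1 was in 5.15% of neurons and 4.2% of oligodendrocytes, and both genes in 8.33% of 12 tanycyte nuclei. Gm31243 was in 3.03% of mural nuclei of WT replicate 1. Astrocytes gave no background for Nhs, with shares of 1.72% to 6.3%. Without thinning, Bank1 was seen in 23.2% and 23.8% of R241E nuclei and in 53.2%, 54.1% and 48.2% of WT nuclei. The nuclei with a Myo1d UMI held 1.33 and 1.29 such UMIs each in R241E and 1.7, 1.74 and 1.58 in WT, without thinning. For Bank1 this was 1.91 and 2.04 against 2.52, 2.77 and 2.05, and for Gm31243 2.24 and 2.05 against 2.81, 2.69 and 2.18, where the groups overlapped. A smaller share of positive nuclei by itself lowers this number. A Poisson spread with the same share would give 1.08 for Myo1d in R241E against 1.21 to 1.25 in WT. For Bank1 it would give 1.14 against 1.37 to 1.44, and for Gm31243 1.1 and 1.12 against 1.31 to 1.37. UMIs of at least 2 of the 4 genes were found together in 3.43% and 6.05% of thinned R241E nuclei and in 22.0%, 23.5% and 20.0% of WT nuclei.

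Bank1 and Gm31243 tended to be seen in the same nuclei. In the WT libraries 48.7%, 46.9% and 42.8% of the nuclei with a Bank1 UMI also had one of Gm31243, compared with 22.0%, 22.2% and 19.6% of the nuclei without Bank1. The same held at the lower level in R241E, with 26.6% and 34.3% compared with 6.57% and 8.62%. In WT nuclei without any macrophage-marker UMI the shares were 44.4%, 45.7% and 44.7% against 22.6%, 23.3% and 18.5%. Myo1d showed less of this: in WT nuclei with Myo1d, 36.1%, 36.0% and 31.4% had Bank1, against 29.1%, 31.6% and 30.1% of those without. Nuclei with a UMI of 1 gene can also be those that gave more RNA, and thinning evens out the total count only.

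Nhs was concentrated in few microglia-like nuclei. In WT replicate 2, 117 of 1470 nuclei held all 281 UMIs, 2.4 per positive nucleus where a Poisson spread with the same share of positive nuclei would give 1.04, and 41 nuclei held 3 or more. WT replicates 1 and 3 gave 2.4 and 2.08 UMIs per positive nucleus. The 1% of nuclei with most Nhs carried 48.0%, 31.3% and 47.4% of its UMIs in the WT libraries, while the corresponding share for Bank1 was 7.61% to 8.23%. Sparsity by itself raises that share: in WT replicate 1, 52 of 924 nuclei held Nhs and 492 held Bank1. Bank1 and Gm31243 also exceeded their Poisson values, with 2.77 against 1.44 and 2.69 against 1.37 in WT replicate 2. WT nuclei with Nhs had summed microglial markers of 8460 to 8670 CPM, and those without had 8301 to 9244. Bank1 stood at 649.5, 676.8 and 538.2 CPM in the WT nuclei with Nhs and at 490.9, 492.0 and 421.9 in those without. Gm31243 stood at 454.1, 534.0 and 516.0 against 478.2, 438.1 and 401.3, and Myo1d at 293.1, 288.3 and 200.2 against 231.9, 214.1 and 228.0, so neither kept 1 direction. The nuclei with Nhs were deeper, with medians of 3135, 3326 and 2575 UMIs against 2450, 2534 and 2041. Fibroblast markers, from a class rich in Nhs, summed to 40.2, 35.1 and 80.1 in WT nuclei with Nhs and to 26.6, 28.2 and 34.7 in those without. Markers of other classes rich in Nhs kept no direction. Mural markers summed to 11.5, 17.5 and 31.1 against 14.8, 17.0 and 20.3, and neuronal markers to 109.2, 90.2 and 71.2 against 84.6, 91.4 and 96.1. The part of such RNA in the Nhs level was not tested. In R241E, 9 and 6 nuclei held any Nhs, and fibroblast and mural markers were at 0 in these few nuclei. Bank1 in these stood at 315.5 (95% Poisson interval 151.3 to 580.2, 10 UMIs) and 777.5 (452.9 to 1245, 17 UMIs) CPM, against 137.6 and 166.3 in the R241E nuclei without Nhs. Gm31243 stood at 441.7 and 503.1 against 121.3 and 143.8. These intervals cover counting error within 2 libraries and no test across animals was run.

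Within clusters holding both genotypes, Myo1d, Bank1 and Gm31243 were lower in every R241E library with a level than in any WT one, and Nhs was so except in clusters 10 and 18. In cluster 18, Nhs stood at 59.1 CPM in the 35 nuclei of R241E replicate 2 (4 UMIs) and at 49.1, 72.8 and 44.3 in WT. In cluster 10 it stood at 3.11 and 5.75 in R241E and at 0, 34.5 and 14.3 in WT. In cluster 1, Bank1 stood at 153.7 and 238.8 CPM in R241E (71 and 54 nuclei) and at 470.3, 481.1 and 420.0 in WT (174, 413 and 652 nuclei). In cluster 10, led by Ifi204 and Ifi207, Bank1 stood at 134.3 and 147.6 in R241E and at 454.4, 367.1 and 300.4 in the 31, 67 and 54 WT nuclei. Gm31243 there stood at 128.0 and 176.3 against 352.1, 211.6 and 293.2. Cluster 14, led by Ifi207, Ifi213 and Ifi204 and holding 98 and 38 R241E nuclei, had the lowest values, with Bank1 at 59.4 and 52.9 and Gm31243 at 36.7 and 37.8. Nhs had no UMI in cluster 14. The clusters were built from all genes, these 4 included, so these values are descriptions.

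R241E microglia-like nuclei differ among themselves in how far interferon genes are on, and the 4 genes were next read along that range. Nuclei were grouped by their UMIs of Ifi204, a DNA-binding PYHIN protein, Oasl2, an oligoadenylate synthetase-like protein, and Usp18, which removes ISG15 from proteins and restrains the interferon receptor. In microglia-like nuclei these 3 genes stood at 476.9 and 421.2, 165.5 and 128.4, and 194.2 and 162.4 CPM in R241E, and none exceeded 18.6 in a WT library. In R241E replicate 1, 331 nuclei had 0, 362 had 1 or 2 and 304 had 3 or more such UMIs. Replicate 2 had 244, 160 and 116.

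Bank1 was lower where interferon UMIs were most numerous. In replicate 1 it stood at 187.0, 130.4 and 108.8 CPM in nuclei with 0, with 1 or 2 and with 3 or more, and in replicate 2 at 191.4, 177.6 and 151.0. Both libraries thus had their lowest value in the last group. The log2 fold change of 3 or more against 0, with the library in the model, was -0.58 ± 0.16 (edgeR quasi-likelihood, adjusted p = 0.0143), a contrast in which 0.548% of 9488 tested genes were called lower. DESeq2 gave -0.55 with an unadjusted p above the threshold and no call. Of 8 other ways of fitting or grouping, DESeq2 included, 2 kept the call for Bank1 and 6 did not, with adjusted p between 0.0596 and 1.

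Gm31243 stood at 141.9, 140.3 and 94.7 CPM in replicate 1 and at 162.6, 168.4 and 110.3 in replicate 2. The first 2 groups did not separate and the last lay below both in each library. Its change of 3 or more against 0 was -0.55 ± 0.17 (95% interval -0.89 to -0.21, edgeR adjusted p = 0.0528), so it was not called. Myo1d stood at 77.4, 56.7 and 46.0 in replicate 1 but at 69.5, 48.4 and 74.3 in replicate 2. Its change was -0.41 ± 0.24 (interval -0.88 to 0.07, edgeR adjusted p = 0.552), and the 2 libraries did not share an order. Nhs had 12 UMIs in the nuclei with 0, 10 in those with 1 or 2 and 2 in those with 3 or more, over both libraries, and did not pass the count filter. At 1 or 2 against 0, none of the 3 tested genes was called (edgeR, 0.0316% of genes called lower), with log2 fold changes of -0.44 for Myo1d, -0.35 for Bank1 and 0.01 for Gm31243. Bank1 alone of these was under 0.05 before adjustment, with an edgeR adjusted p = 0.9, and DESeq2 called none. Of all 9488 genes, 511 were under 0.05 before adjustment, 225 of them with a change below 0. The last group was deeper, with medians of 3509 and 3316 UMIs per nucleus against 2649 and 2126 in the first, and in nuclei of at least 3000 UMIs the Bank1 change was -0.57 (edgeR adjusted p = 0.191).

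**Figure D2:**
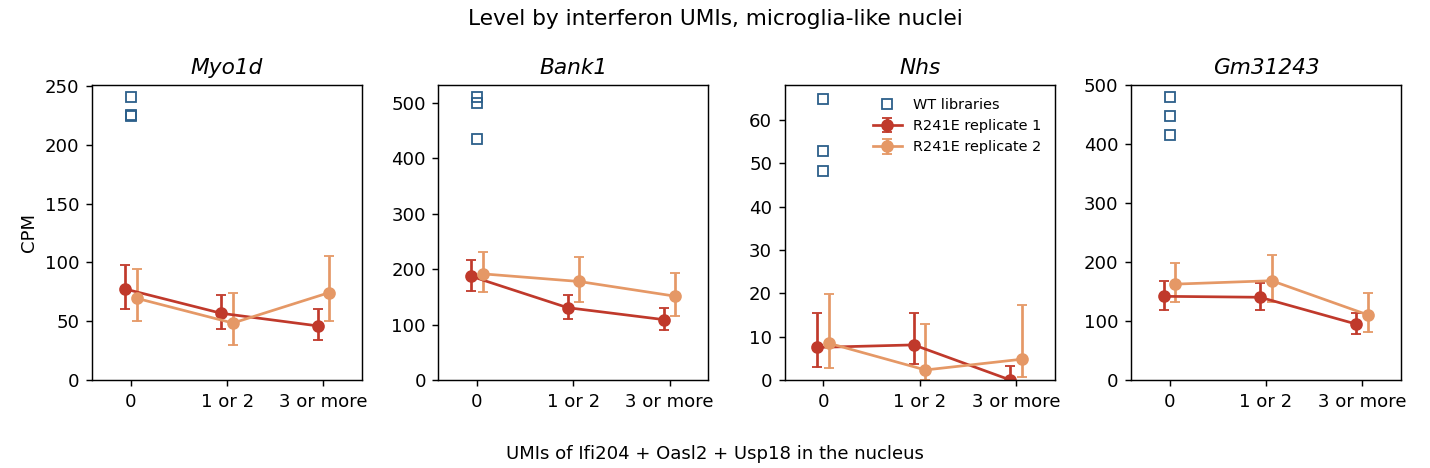
Level of each gene (vertical axis, CPM, from 0) in R241E microglia-like nuclei grouped by their UMIs of Ifi204, Oasl2 and Usp18 (horizontal axis), 1 line per library with exact 95% Poisson intervals, and WT nuclei with 0 such UMIs as open squares. R241E nuclei with 0 interferon UMIs sit below the WT squares in all panels, for Bank1 at 187.0 and 191.4 against 435.3 to 511.1.

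Without thinning, the range within R241E was narrow beside the distance to WT, which is the contrast that chose the genes. R241E nuclei with 0 interferon UMIs had 77.4 and 69.5 CPM of Myo1d, where WT nuclei with 0 had 224.7 to 240.4. For Bank1 the values were 187.0 and 191.4 against 435.3 to 511.1, for Gm31243 141.9 and 162.6 against 415.2 to 480.4, and for Nhs 7.52 and 8.47 against 48.2 to 64.9. Grouped after thinning, the range within R241E was wider for Bank1 and Gm31243, on few UMIs. Bank1 stood at 139.4 and 176.5 CPM in nuclei with 0 and at 32.3 and 105.3 in those with 3 or more (3 and 4 UMIs). Gm31243 stood at 134.1 and 164.1 against 10.8 and 105.3 (1 and 4 UMIs), and Myo1d at 69.7 and 65.0 against 53.8 and 52.6 (5 and 2 UMIs). A nucleus with 0 UMIs of 3 genes at this depth need not lack their RNA.

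In WT microglia-like nuclei interferon UMIs were rare: 33, 69 and 59 nuclei had 1 or 2 and 8 in each library had 3 or more. None of the 4 genes was called between nuclei with at least 1 and with 0 (edgeR, 0.0273% of 10972 genes called lower), and DESeq2 called none. The log2 fold changes were -0.32 ± 0.16 for Myo1d, -0.13 ± 0.11 for Bank1, -0.78 ± 0.34 for Nhs and -0.25 ± 0.12 for Gm31243, all below 0. The median over all genes was -0.02. Myo1d, Nhs and Gm31243 were under 0.05 before adjustment, and their edgeR adjusted p lay between 0.654 and 0.746. Of all 10972 genes, 705 were under 0.05 before adjustment, 371 of them with a change below 0. For Nhs the change was -2.04 without WT replicate 2, in which nuclei with 1 or 2 interferon UMIs stood at 69.0 CPM against 9.86 and 17.2 in the other WT libraries.

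Outside microglia the 4 genes marked different cells, and their levels there were compared between the genotypes without having entered the choice. Of 12 named cell classes, 6 besides microglia had at least 20 nuclei in each library and were tested. None of the genes that passed the count filter was called in any of the 6, where the share of tested genes called was 0.988% for border-associated macrophages, 0.285% for oligodendrocytes, 0.0172% for fibroblasts, 0.444% for astrocytes, 0.0111% for neurons and 0.00% for mural cells. DESeq2 called none either. In simulated counts with 2-fold changes, edgeR found from 32.8% of them in mural cells to 56.5% in oligodendrocytes. A missing call in these classes therefore does not show an unchanged level. The changed genes were drawn at random from all that passed the filter, at a fixed dispersion, so these shares are not those of the 4 genes. Before adjustment 5 of the 13 edgeR tests were under 0.05, in macrophages (320 of all 3946 genes), fibroblasts (413 of 5809), mural cells (174 of 3862) and neurons (859 of 8974, 2 of the 5 tests). With no filter on low counts, Nhs in neurons and Gm31243 in mural cells were called.

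Border-associated macrophages, the resident macrophages of meninges and vessels, had the highest Bank1 and Gm31243 of all classes. Bank1 stood at 1069 and 1360 CPM in the R241E mice and at 1444, 1222 and 1260 in WT, and the groups overlapped. Its log2 fold change was -0.11 ± 0.16 (95% interval -0.44 to 0.21, edgeR adjusted p = 0.951). Gm31243 stood at 832.9 and 943.6 against 1228, 1115 and 1064, so both R241E libraries lay below all WT ones. Its change was -0.36 ± 0.16 (interval -0.69 to -0.02, unadjusted p = 0.0365, edgeR adjusted p = 0.545). Myo1d and Nhs gave 9 and 1 UMIs over all 342 macrophage nuclei. Cells of a cluster with monocyte and neutrophil markers, led by the class II genes H2-Aa, Cd74 and H2-Ab1, came next with Bank1 at 144.3 and 338.8 against 152.7, 346.0 and 408.7 and Gm31243 at 98.4 and 427.1 against 152.7, 283.1 and 359.6. Fewer than 20 such nuclei in WT replicate 1 left these untested, and the groups overlapped. In WT the mean over libraries was 1308 ± 118.7 (SD, n = 3) in the macrophages, 480.3 ± 43.9 in microglia and 302.5 ± 133.4 in the monocyte cluster for Bank1, and the last 2 differed by little more than their spread.

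Myo1d was an oligodendrocyte and endothelial gene. The oligodendrocyte nuclei are those that escaped the Olig2 sort. In them Myo1d stood at 574.4 and 598.0 CPM in the R241E mice and at 670.4, 568.2 and 489.9 in WT, with both R241E values inside the WT range. The log2 fold change was 0.02 ± 0.19 (interval -0.37 to 0.42, edgeR adjusted p = 1). Its sign turned to -0.11 with the mouse number in the model and to -0.09 without WT replicate 3. Endothelial nuclei held 254.9 and 481.5 in R241E (11 and 15 UMIs in 13 and 17 nuclei) and 1098, 679.2 and 1064 in WT (14, 15 and 31 UMIs in 7, 10 and 13 nuclei). These groups did not overlap, but their Poisson intervals did, from 269.5 to 794.2 in R241E replicate 2 and from 380.2 to 1120 in WT replicate 2, and so few nuclei were not tested. Mural cells held 168.9 and 96.7 against 116.8, 167.3 and 118.6, with a change of -0.01 ± 0.32 (interval -0.66 to 0.63, edgeR adjusted p = 0.999). In WT, endothelial nuclei had the highest mean of Myo1d, 946.9 ± 232.5 (SD, n = 3), then oligodendrocytes at 576.1 ± 90.5, microglia at 227.8 ± 7.78 and mural cells at 134.2 ± 28.6, each step larger than the SD of the lower class.

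Nhs was highest in fibroblasts, neurons and mural cells. In fibroblasts it stood at 338.0 and 316.2 CPM in the R241E mice and at 191.9, 158.6 and 220.3 in WT, so both R241E libraries lay above all WT ones, the reverse of microglia. The log2 fold change was 0.83 ± 0.23 (interval 0.34 to 1.32, unadjusted p = 0.00313, edgeR adjusted p = 0.334). The class was made up differently in each library, with 104 of 167 and 57 of 151 R241E nuclei in cluster 11, against 9 of 30, 17 of 67 and 38 of 94 WT nuclei, and the part of this in the Nhs level was not tested. In astrocytes it also lay higher in R241E, at 45.4 and 52.0 against 36.6, 34.6 and 23.4. The change was 0.70 ± 0.34 (interval -0.03 to 1.43, edgeR adjusted p = 0.563). Astrocyte cluster 4 held 173 of 178 and 82 of 127 R241E nuclei but 38 of 64, 17 of 58 and 26 of 144 WT nuclei. Mural cells held 178.3 and 70.6 against 168.7, 161.3 and 99.9 (log2 fold change -0.10 ± 0.34, edgeR adjusted p = 0.999). Neurons held 88.9 and 64.6 against 371.6, 223.2 and 77.3, a range within WT wider than the distance between the genotypes (-1.67 ± 0.63, unadjusted p = 0.0295, edgeR adjusted p = 0.43). The neurons that escaped the NeuN sort differed in kind between libraries, since cluster 19 held 147 of the 284 neuronal nuclei of WT replicate 1 and 2 and 5 nuclei of the R241E libraries. WT neurons, fibroblasts and mural cells, at 224.0 ± 147.1, 190.2 ± 30.9 and 143.3 ± 37.8 (SD, n = 3), did not separate beyond their spread, and WT endothelial nuclei gave UMIs of Nhs in 1 library only. Tanycytes (0, 239.2 and 29.6 in WT, 12 to 19 nuclei per library, untested) spread more widely than these means differ, and microglia stood at 53.9 ± 9.72.

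**Figure D3:**
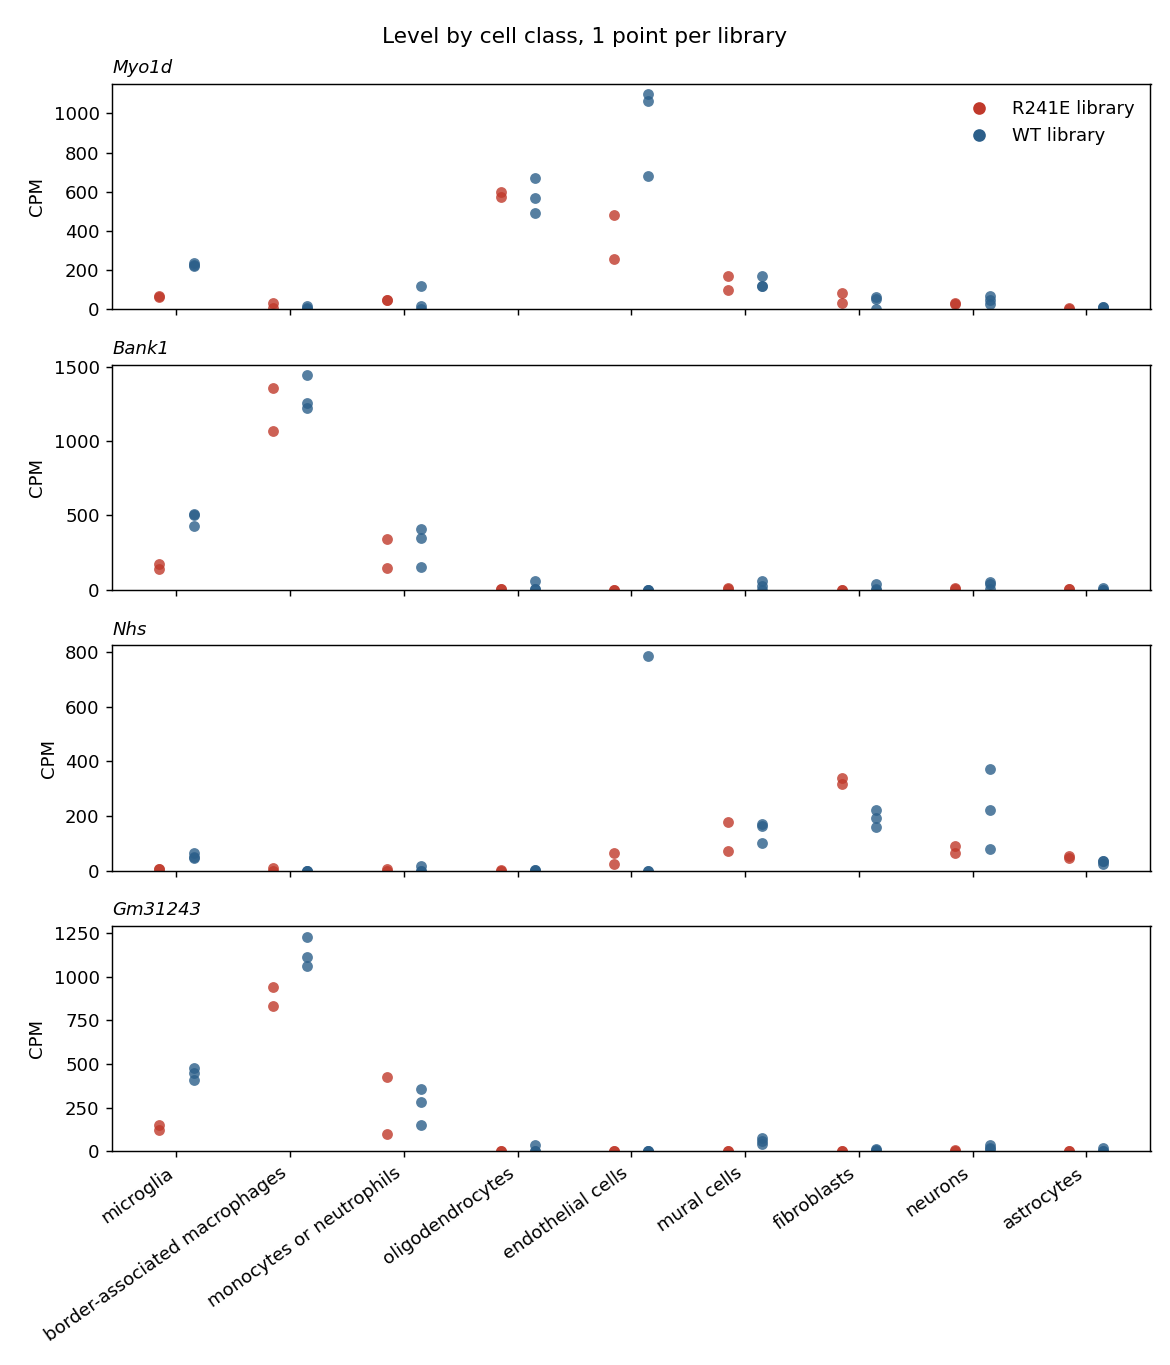
Level of each gene (vertical axes, CPM, from 0) in 9 cell classes, with 1 point per library (R241E red, WT blue). Both Bank1 and Gm31243 are highest in border-associated macrophages, where Bank1 of the genotypes overlaps at 1069 to 1444, Myo1d in endothelial nuclei and oligodendrocytes, and Nhs in fibroblasts, neurons and mural cells apart from 1 endothelial value of 784.3 that rests on 10 UMIs.

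Bank1 and Gm31243 also gave low counts in cells not known for them. In oligodendrocytes Bank1 had 3.02 and 3.44 CPM against 5.91, 3.51 and 60.6 in WT mice, and Gm31243 was at 0 in 4 libraries and at 36.4 in WT replicate 3. Gm31243 in mural cells, 4.69 and 3.72 (2 and 1 UMIs) against 77.9, 59.7 and 43.7 (6, 10 and 7 UMIs), and in neurons, 4.85 and 9.22 against 12.9, 21.5 and 38.7, was in the same range, with unadjusted p of 0.00195 and 0.0326 and edgeR adjusted p of 0.567 and 0.45. Whether such counts come from free microglial RNA was not tested, and no difference between the genotypes is read from them.

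Across the 35 class-by-library profiles of the 7 tested classes, Bank1 and Gm31243 were alike (Pearson r of log2 level 0.888 over 11433 genes compared, rank 37 for Gm31243 among the genes most like Bank1 and rank 23 in the other direction). The genes most like Bank1 were Gpr183 (r = 0.939), Vxn (0.933) and Wdfy4 (0.931), and those most like Gm31243 were Tlr7 (0.938), Pik3cg (0.924) and Gm5086 (0.921). Myo1d was closest to Ypel2 (0.760), Ppp1cc (0.757) and Plcl1 (0.754), and Nhs to Runx1t1 (0.904), Gm10125 (0.891) and Arhgef25 (0.881). Myo1d and Bank1 (r = 0.01) and Nhs and Bank1 (r = -0.461) were not alike. The profiles of a class share its cells and those of a library share its depth, so the values are descriptive.

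Relatives and partners of the 4 genes were read from lists in the same microglial fit. Of 14 tested unconventional myosins other than Myo1d, 1 was called lower (7.14%) and 4 higher (28.6%), beside 3.10% and 5.70% of all genes, with a median log2 fold change of -0.05 beside 0 over all genes. The one called lower was Myo18b, a myosin known from muscle, at 27.1 and 39.6 CPM against 103.7, 115.3 and 82.5 (-1.68 ± 0.19, edgeR adjusted p = 2.29e-05). Myo5a, the motor that carries vesicles along actin, rose from 37.3, 38.3 and 40.2 in WT to 95.8 and 79.1 in R241E (1.19 ± 0.14, edgeR adjusted p = 2.33e-05). Myo1g (0.65 ± 0.18, adjusted p = 0.0311) and Myo1f (0.35 ± 0.10, adjusted p = 0.0366) rose by less, and their calls held in 1 and 2 of the 5 fits that left out 1 library, where Myo18b and Myo5a were called in all 5. Only 1 myosin was called higher without either R241E library or without WT replicate 2, and 2 without WT replicate 1. Myo1e, another class I myosin, was not called (-0.16 ± 0.16, edgeR adjusted p = 0.646).

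Of 23 tested genes of antigen receptor and Toll-like receptor signalling, the setting in which Bank1 is known, none was called lower and 2 (8.7%) were called higher, close to the 3.10% and 5.70% of all genes, at a median of 0.08. Pik3ap1, an adaptor for PI3-kinase with domains like those of Bank1, stood at 650.0 and 544.8 CPM in the R241E mice and at 388.6, 365.1 and 334.7 in WT (0.71 ± 0.11, edgeR adjusted p = 0.000342), without overlap and in the direction opposite to Bank1. With either R241E library left out, Pik3ap1 was called and the count for the list was 1, and it was 3 without WT replicate 3. Lyn, the kinase that binds Bank1, stood at 1734 and 1613 against 1573, 1451 and 1362 (0.18 ± 0.10, adjusted p = 0.316). The IP3 receptor genes Itpr1, Itpr2 and Itpr3 gave 0.45, 0 and -0.11, none of them called. Of the 7 B cell markers 3 could be tested and none was called, at a median of 0.95.

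Of 21 tested relatives of Nhs and members of the WAVE and Arp2/3 complexes, which build branched actin, 2 (9.52%) were called lower and none higher, beside 3.10% and 5.70% of all genes, with a median of -0.07. Nhsl2, the relative of Nhs that microglia express, stood at 13.6 and 23.6 CPM in the R241E mice and at 46.2, 38.3 and 40.5 in WT, without overlap (-1.28 ± 0.22, edgeR adjusted p = 0.00104). It lost its call without R241E replicate 1, as did the WAVE subunit gene Abi2 (-0.55 ± 0.16, adjusted p = 0.0444), so that 0 of the list were then called. Without WT replicate 1 or 2 only Nhsl2 was called, and without WT replicate 3 there were 4 calls. Nhsl1 had 16 UMIs in all microglia-like nuclei and was not tested. The other WAVE and Arp2/3 genes lay between -0.67 for Cyfip2 and 0.32 for Arpc3.

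**Figure D4:**
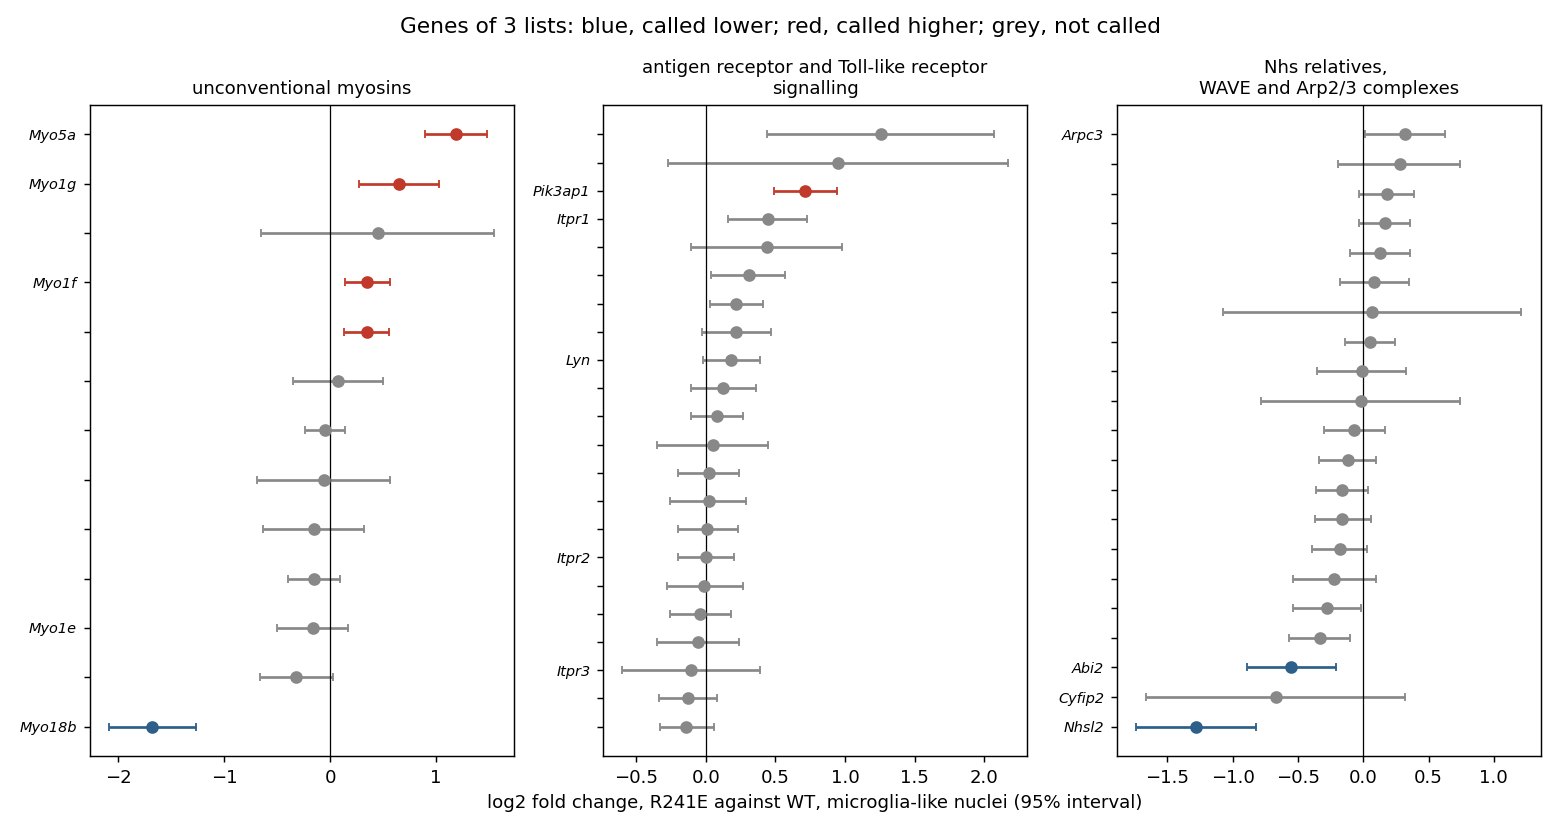
Log2 fold change in microglia-like nuclei, R241E against WT (horizontal axes, with 95% intervals), of the tested genes of 3 lists, a few of them not shown and those named in the text labelled, with blue for genes called lower, red for genes called higher and grey for the rest. Most genes lie near 0, while Myo18b (-1.68) and Nhsl2 (-1.28) lie far below it and Myo5a (1.19) and Pik3ap1 (0.71) above it.

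Lists that the study took from earlier publications for microglial states were read in the same fit. Of 45 homeostatic microglial genes, 6 were called lower (13.3%) and 3 higher (6.67%), beside 3.10% and 5.70% of all genes, at a median of -0.03. Lrba fell by 0.58 on the log2 scale, Siglech by 0.42 and Gpr34 by 0.41, and Cd81 (0.90), Tlr3 (0.58) and Marcks (0.34) rose. Only 1 of the 45 was called lower without R241E replicate 1 or without WT replicate 2, whereas 10 were without WT replicate 3. The higher calls numbered 1 without R241E replicate 2 or with DESeq2 and 5 without WT replicate 3, and Marcks was called in 1 of the 5 fits that left out a library. All 28 interferon genes were called higher, at a median of 4.18. Ifi44 stood at 27.4 and 29.8 CPM in the R241E mice and at 0 in every WT library, Oasl1 at 33.7 and 45.1 against 0.81, 0 and 0, and Oas3 at 12.6 and 11.8 against 0, 0.231 and 0.

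The tested genes nearest to the 4 on their chromosomes, up to 2001.09 kb away, were read in the same fit. Of these 30 genes, 5 on each side, 1 was called lower (3.33%) and 3 higher (10%), beside 3.10% lower and 5.70% higher over all genes. Cdk5r1, 0.94 kb from Myo1d and encoding the activator p35 of the kinase Cdk5, was the one called lower, at 25.9 and 25.7 CPM against 43.0, 42.0 and 34.8 (-0.64 ± 0.18, edgeR adjusted p = 0.0314). It kept that call in 1 of the 5 fits that left out a library, without WT replicate 3. The 3 called higher were the chemokine genes Ccl2 (4.77 ± 0.57), Ccl7 (5.10 ± 0.84) and Ccl12 (3.87 ± 0.18), 1255.52 to 1321.79 kb from the other side of Myo1d. Slc39a8, a zinc transporter gene 13.24 kb from Gm31243 and 164.79 kb from Bank1, had 14.5 and 15.3 against 13.8, 13.2 and 13.2 (0.14 ± 0.23, adjusted p = 0.816). Ppp3ca, the nearest tested gene beyond Bank1 at 343.57 kb, gave -0.21 ± 0.09 (adjusted p = 0.204). Reps2, 252.51 kb from Nhs, gave 0.13 ± 0.34 (adjusted p = 0.893). Between Gm31243 and Bank1 RefSeq places only pseudogenes, which the files do not count.

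Of the 4 genes, 3 are among the longest that microglia express. Myo1d, Bank1 and Nhs span more than 96.9%, 96.5% and 97.2% of the 11832 tested genes with a RefSeq span, and Gm31243 more than 55.3%. Among tested genes over 200 kb, 70 of 636 (11%) were called lower and 5.97% higher, whereas under 10 kb 1.26% were called lower and 8.77% higher. The medians were -0.05 and 0.08. Span was matched for 93.2% of the tested genes, and whether intronic reads were counted is not given in the sources used here. The part of span in the lower levels of the 4 genes was not tested.

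**Figure D5:**
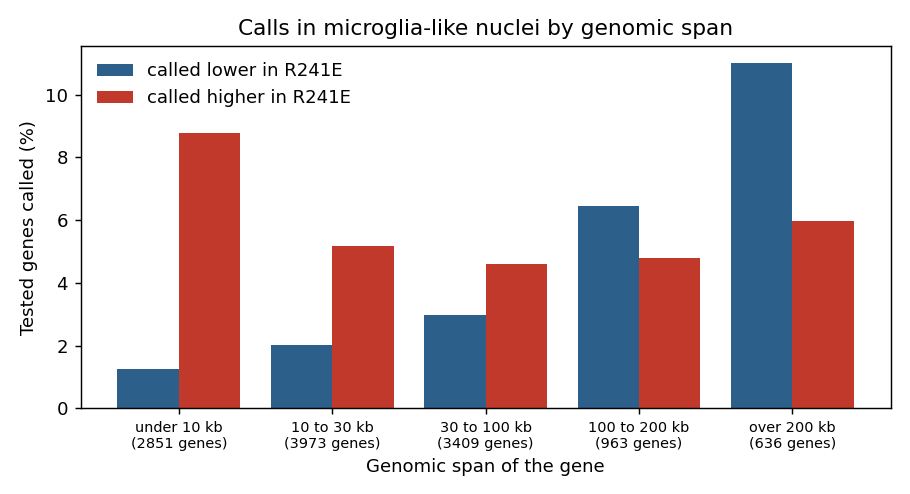
Share of tested genes (vertical axis, percent, from 0) called lower (blue) or higher (red) in R241E microglia-like nuclei, in 5 bins of genomic span (horizontal axis, with the number of genes). The share called lower goes from 1.26% under 10 kb to 11% over 200 kb.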

How the data were processed

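Nuclei of 2 R241E and 3 WT mice were counted per gene by the authors with Cell Ranger on mm10 and deposited as raw UMI counts; the submitters' notes also name Seurat. Nuclei with at least 200 and under 4500 genes, under 10000 UMIs and under 5% mitochondrial UMIs were kept, which is also how doublets were handled; no doublet caller was run. They were clustered over 30 principal components (scanpy 1.11.5, Leiden resolution 1) and named from marker lists. UMIs were summed per library and class, and levels are CPM. Sums were tested with edgeR 4.0.16 (TMM, filterByExpr, quasi-likelihood, Benjamini-Hochberg over all genes, threshold 0.05) in R 4.3.3, with DESeq2 1.42.0 as an alternative. Exact Poisson intervals (95%) cover counting error only. Replicates are separate mice. Groups within a genotype were fitted with library as a term. Scripts were tested on simulated data with 2-fold changes, put in randomly drawn genes at a fixed dispersion. Of these edgeR found 51.8% in microglia, 30.8% between R241E nuclei with 3 or more and with 0 interferon UMIs, and 25.3% in the WT interferon contrast. A missing call there does not show an unchanged level.

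The 4 genes, the marker and gene lists and the grouping by interferon UMIs were chosen with earlier results of these data known. Genes named besides the 4 are the 3 interferon genes, up to 3 called genes with the largest change in each direction per list, the named relatives, the nearest tested neighbours and called ones, and the 3 most alike per gene. Lyn, the Itpr genes, Stab1, Mrc1, Cd163, Cyfip2 and Arpc3 fall outside this rule and were named after their values were seen. The self-made classes rest on marker genes, not on an annotation by the authors. Results for a few genes are not reported here.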

Additional observations from a re-analysis of the deposited data

Results flagged for a closer look

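Nhs differed in direction between cells of the same mice. In microglia-like nuclei, the contrast that chose the gene, both R241E values were under every WT value. In fibroblasts (log2 fold change 0.83) and in astrocytes (0.70, 95% interval -0.03 to 1.43) both lay above all WT libraries. The Nhs change was below 0 in neurons (-1.67) and mural cells (-0.1), where the groups overlapped. How many of all genes separate in this way was not counted, so no result is read from the separation. The difference between the classes was not itself tested, and neither fibroblasts nor astrocytes passed the adjusted threshold. The fibroblast sums rest on 245 and 154 Nhs UMIs in R241E and on 18, 39 and 57 in WT, and the astrocyte sums on 42 and 25 against 12, 9 and 12. Both classes were made of different clusters in different libraries: fibroblast cluster 11 held 104 and 57 R241E nuclei and 9, 17 and 38 WT nuclei, and astrocyte cluster 4 held 173 and 82 against 38, 17 and 26. The part of this in the Nhs values was not tested. Groups of 2 and 3 mice are too small to look for outlying libraries.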

How the results depend on the processing

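The microglial values kept their direction under every alternative run. The genes were chosen for being lower in these same libraries, so the kept direction is no support for the difference. Myo1d moved to -2.10 in nuclei thinned to 1000 UMIs and to -2.42 in the 346 nuclei without a UMI of another class's markers, Bank1 and Gm31243 there to -2.12 and -2.56, and Nhs to -2.91 when thinned. Of the list genes and neighbours, the study's own lists aside, 4 were called lower and 9 higher. DESeq2 called 2 lower, 5 were called higher after thinning, and leaving out 1 library gave 1 to 7 lower and 4 to 10 higher. The labels do not say that mouse numbers pair the animals, and deviations of same-numbered libraries correlated at 0.109 and -0.019. With that number as a replicate block, 8 of these were called lower and 12 higher, 14 homeostatic genes were called lower and 11 higher, Myo1d in oligodendrocytes turned to -0.11, and Nhs in neurons was called (-2.04, edgeR adjusted p = 0.00511). With no filter on low counts, Nhs in neurons (-1.70, adjusted p = 7.59e-05) and Gm31243 in mural cells (-3.51, adjusted p = 0.0162) were called. The call of Bank1 between nuclei with 3 or more and with 0 interferon UMIs was lost with DESeq2 (-0.55), without the library in the model (-0.59), grouped after thinning (-1.47), grouped by the 28 interferon genes (-0.25), with interferon genes left out (-0.55) and in nuclei of at least 3000 UMIs (-0.57), a setting chosen after seeing the data. With 1 library left out it was -0.34 and -0.78, values without a test. Gm31243 gained a call after thinning (-1.87, edgeR adjusted p = 0.0233) and gave -0.58 and -0.56 with 1 library left out. Other signs turned when a library was left out: Bank1 in border-associated macrophages ranged from -0.26 to 0.07, Myo1d in oligodendrocytes from -0.09 to 0.16, in fibroblasts from -0.41 to 0.90, in mural cells from -0.51 to 0.31 (0.06 with no filter) and between interferon groups from -0.75 to 0.10, Nhs in mural cells from -0.99 to 0.37, and Gm31243 at 1 or 2 against 0 interferon UMIs from -0.02 to 0.05 (-0.06 with the 28 genes). The causes of these changes were not tested. Sparse counts limit Nhs most, with 24 UMIs in R241E microglia-like nuclei.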
